A study of Mus musculus with 4 samples.

Results

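The difference between the lung's response to elastase after sham surgery and its response after ORX was measured here gene by gene. For each gene the value is the log2 difference of ORX/PPE from ORX/PBS, less the log2 difference of sham/PPE from sham/PBS. A value of 1 means that the elastase difference was 2-fold higher in ORX lungs than in sham lungs, and a value of -1 that it was 2-fold lower. All 4 arrays of the series enter each value, so a value can be produced by any 1 of them. The value is high where ORX/PPE or sham/PBS is high or where sham/PPE or ORX/PBS is low, and low in the opposite cases. For that reason large values are counted below by the array credited with them, and that array is given for many of the genes named. A probe was a member when it was well above background on all 4 arrays, which held for 38638 of 56605 probes. They stand for 19323 of the 27195 genes named on the array, each gene being given by its brightest member probe.

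Every group was of the strain C57BL/6J, and total RNA of lung was hybridised on 1-colour Agilent arrays. Mice had a sham operation or ORX and then inhaled PBS (sham/PBS and ORX/PBS) or PPE (sham/PPE and ORX/PPE), and were sampled at 3 weeks. From the title, which speaks of testosterone deficiency and of emphysema induced by elastase, ORX was read as orchiectomy and PPE as porcine pancreatic elastase. Each group was 1 array made from the pooled RNA of 5 mice, so there are no replicates, nothing was tested, and every value describes these pools and not the conditions. In a whole lung, fewer cells of a type cannot be told apart from less RNA per cell.

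Elastase instilled into the airways digests the elastic fibres that give the lung its recoil, draws in neutrophils and macrophages, and leaves enlarged air spaces as in emphysema. Antiproteases such as alpha-1 antitrypsin limit this damage. Orchiectomy removes the testes and with them most circulating testosterone, the ligand of the androgen receptor. A lung taken at dissection can also carry cardiac muscle in the walls of the pulmonary veins, brown and white fat around the hilum, and blood.

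The labelled tissue was present on every array by its markers. All 28 alveolar type 2 cell genes and all 21 alveolar type 1 cell genes of the lists used were well above background on all 4 arrays. The array-wide 75th percentile of the processed signal, to which each array was scaled, lay between 830 and 999 on the linear scale. Probes spotted 10 times gave a median SD of 0.067 for the difference of responses, which covers spot noise and not the spread between pools or mice. Probes of the same gene differed by more. Over 8424 genes with other member probes, a gene's value lay a median of 0.25 from the median of those probes. The 10 spike-in probes, which carry the same added RNA on each array, had a median difference of 0.34, with a range from -0.28 to 0.60. Every gene list median above 0 given below lies within that range. Values below are set against all genes and not against the spike-ins. No probe is set against another by level below: a level is the log2 signal minus the array's 75th percentile, and it is compared only between arrays.

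Across the 19323 genes the difference of responses had a median of -0.02 and an SD of 0.41, and the central 95% lay between -0.82 and 0.84. The lowest was -5.69, for the cardiac hormone gene Nppb, and the highest 2.81, for the goblet cell gene Clca1. At least 2-fold higher were 281 genes (1.45% of those measured), and at least 2-fold lower were 285 genes (1.47%). With each array centred on its median instead, 222 were higher and 342 lower. At a 4-fold threshold 10 genes were higher and 28 lower, so the largest values lay on the lower side. Of the 566 large values, 513 had elastase differences of opposite sign in the surgeries, and 53 had the same sign with unequal size. Only 8 genes passed 2-fold in both surgeries in opposite directions. Most large values therefore joined moderate differences that ran opposite ways. Selecting genes by the difference of the responses favours this, since few genes passed 2-fold within either surgery. For scale, elastase within sham lungs went with 164 genes at least 2-fold higher (0.849%) and 55 lower (0.285%), and within ORX lungs with 74 higher (0.383%) and 47 lower (0.243%).

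**Figure D1:**
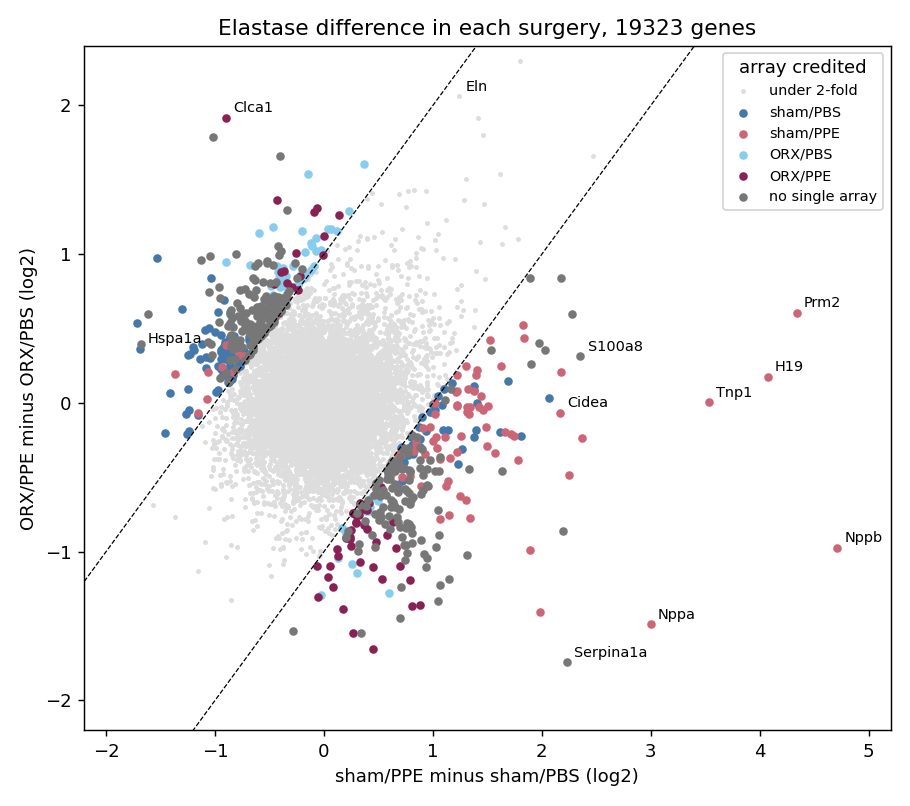
The horizontal axis is the elastase difference in sham lungs and the vertical axis that in ORX lungs, both log2, for 19323 genes; the dashed lines bound a 2-fold difference of the responses, and coloured points beyond them show the array credited. The lower right holds genes high on sham/PPE, such as Nppb, Nppa, Prm2, H19 and Tnp1, and Eln, at 1.24 and 2.06, lies inside the lines.

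Dim probes supplied most of the large values. With genes split by brightness into 4 sets of nearly equal size, the dimmest set held 186 of the 281 higher and 192 of the 285 lower values, and its SD was 0.58. The brightest set had an SD of 0.28, with 22 higher and 20 lower values. When background was corrected by normexp, which damps differences between dim signals, 61 genes stayed at least 2-fold higher and 73 lower, each of them past 2-fold in the main values too. Where a gene with a large value had another member probe, the median of the other probes had the same sign for 81 of 96 genes and passed 2-fold the same way for 31.

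Each value was credited to 1 array when that array lay outside the range of the other 3 and its gap to the nearest of them was wider than their range. Of the 281 higher values, 79 came from a high sham/PBS array, 38 from a low ORX/PBS array, 17 from a high ORX/PPE array and 11 from a low sham/PPE array. The remaining 136 came from no single array, and in 123 of these sham/PBS and ORX/PPE both lay above sham/PPE and ORX/PBS. Higher values thus had a PBS array as their source more often than a PPE array, by 117 to 28. Of the 285 lower values, 71 came from a high sham/PPE array, 41 from a low ORX/PPE array, 38 from a low sham/PBS array and 13 from a high ORX/PBS array. A further 122 came from no single array, 81 of them with the crossed arrangement. Lower values thus had a PPE array as their source more often, by 112 to 51. Among all 19323 genes, whatever their size of difference, 21.4% were credited to sham/PBS, 10.2% to sham/PPE, 8.85% to ORX/PBS, 12.7% to ORX/PPE and 46.9% to no array. Of the 9058 genes credited to no array, 2976 had the crossed arrangement in either direction. Selecting genes by a large value favours that arrangement. For the counts of highest and lowest arrays given below, sham/PBS was the highest array for 5808 of all genes, sham/PPE for 4917, ORX/PBS for 3918 and ORX/PPE for 4680. The lowest array was sham/PBS for 6042, sham/PPE for 3813, ORX/PBS for 4295 and ORX/PPE for 5173. For the counts by sign given below, 9102 of all genes lay above 0 and 10221 below.

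**Figure D2:**
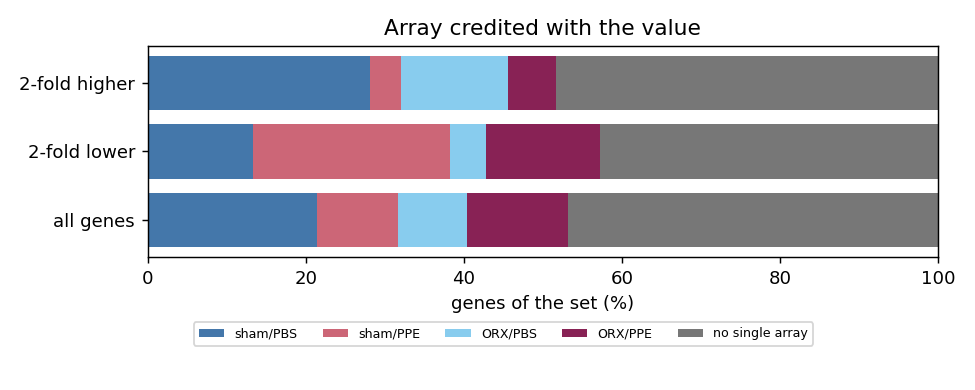
Stacked bars give the percentage of genes credited to each array for the 281 higher values, the 285 lower values and all 19323 genes, with 1 array per group. The sham/PBS share was 28.1% of the higher values, the sham/PPE share 24.9% of the lower values, and genes credited to no single array made 48.4% and 42.8%.

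Of the 79 higher values credited to sham/PBS, 28 were those of probes that hold a simple repeat. Windows of some repeat probes are shown first, not all of them credited to sham/PBS. Whether the repeat had a part in the values was not tested. The split by repeat was chosen after the values were seen. Capitals mark the run of alternating A and G in windows of 30 bases from the 60-base probes, 5′ to 3′, and coordinates are those of the files on mouse build mm9.
Cabp5: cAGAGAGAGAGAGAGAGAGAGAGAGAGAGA
Phyhipl: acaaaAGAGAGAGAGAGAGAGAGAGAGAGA
Trp53rkb: gagctAGAGAGAGAGAGAGAGAGAagctgt
Cd300lf: tttaaggaggaAGAGAGAGAGAGAGAGAGt
Lsamp: acagatacAGAGAGAGAGAGAaagagtgca
Tdgf1: gagaaaaaAGAGAGAGAGAGAagaaaaact
The probe of Cabp5 lies on chr7:13993821-13993880, that of Phyhipl on chr10:70030612-70030671 and that of Trp53rkb on chr2:166619041-166619100. Those of Cd300lf, Lsamp and Tdgf1 lie on chr11:114977796-114977855, chr16:42174381-42174440 and chr9:110842722-110842781. Whether these places are exonic or intronic was not analysed here.

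These genes have little in common by function: Cabp5 encodes a neuronal calcium sensor, Lsamp a neuronal adhesion protein and Tdgf1 an embryonic growth factor. Their values moved alike over the 4 arrays. The level of Cabp5 was 5.31 with PBS and 4.39 with PPE in sham lungs, and 4.04 with PBS and 4.42 with PPE in ORX lungs, a difference of responses of 1.30. Wherever 4 levels follow each other without names, they are in this order of arrays. For Lsamp the levels on those arrays were 2.18, 1.12, 0.73 and 1.24, and the difference was 1.56. In both, sham/PBS was the highest array and ORX/PBS the lowest. In Tdgf1 no single array was credited. Phyhipl had a difference of 1.30, Trp53rkb 1.20, Cd300lf 1.28 and Tdgf1 1.53.

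Over all member probes, 54 (0.14%) held a run of A and G of at least 10 bases. Their median difference of responses was 1.16, with quartiles of 0.67 and 1.33, and 34 of the 54 were at least 2-fold higher, against 866 of all 38638 member probes (2.24%). Sham/PBS was the highest array for 49 of the 54 and ORX/PBS the lowest for 46. The median grew with the run: it was 0.05 for runs of 6 or 7 bases, 0.20 for 8 or 9, 1.12 for 10 to 15 and 1.24 for 16 or more, the last over 12 probes. With normexp the median of the 54 probes was 1.13, and that of the probes with runs of 8 or 9 bases was 0.09. Their spots lay on rows 1 to 384 of the array, the same span as all member probes.

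Other kinds of run differed in size and sign. Probes with an AAG run of 16 bases or more, 20 in number, had a median of 0.76, with sham/PBS the highest array for all 20 and ORX/PBS the lowest for 18, as with the A and G runs. The opposite strand of the A and G run went the other way: 10 probes with a run of C and T of at least 16 bases had a median of -0.38, with sham/PBS 0.26 below each probe's mean of the 4 arrays. Runs of G and T of at least 16 bases had a median of 0.31 over 71 probes, with narrow quartiles of 0.30 and 0.34, and here ORX/PPE stood 0.26 above the probe means. For 42 probes with A and C runs of that length the median was 0.01, although both sham arrays stood above both ORX arrays, at 0.22 and 0.15 against -0.15 and -0.22.

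**Figure D3:**
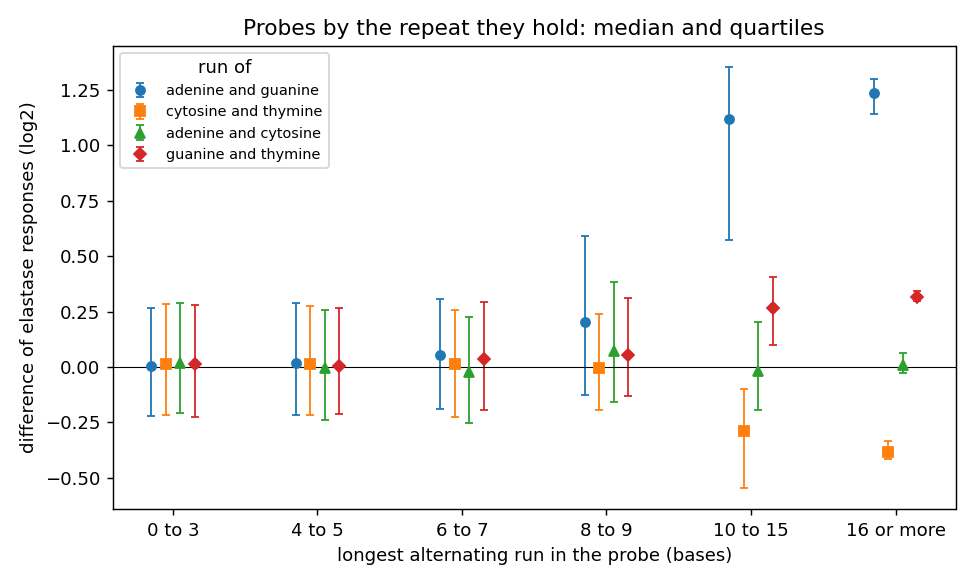
Points give the median difference of responses (log2) and bars the quartiles of the member probes, by the longest alternating run each probe holds in bases, for 4 kinds of run. Runs of adenine and guanine climb to 1.24 at 16 bases or more, runs of cytosine and thymine reach -0.38, and those of adenine and cytosine stay at 0.01.

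In 15 genes the brightest probe held an A and G run of at least 10 bases and another member probe of the same gene held none of these runs. The repeat probes had a median of 1.28, and 12 of 15 were at least 2-fold higher. The other probes without a run, taken as 1 median per gene, had a median of -0.21, with a range from -0.67 to 0.31, and 0 of 15 passed 2-fold. Windows of the other probe of 3 of these genes are shown to set against those above.
Phyhipl other probe: catcaaaagaacacagctttgctgtatatt
Cd300lf other probe: gctctgactttggccggcttgggtcaggag
Lsamp other probe: cctgagtgctcgcgtccaattactgtaaat
For the other probe of Phyhipl the difference was -0.67, for that of Cd300lf -0.65 and for that of Lsamp -0.28. These other probes were dim, with levels from -6.04 to -3.88, and with normexp their differences were -0.24, -0.20 and -0.16. In these 3 genes the signs were opposite. Over the 15 genes the repeat probe and the other probes had opposite signs in 7 and the same sign in 8, Tdgf1 among the latter at 1.53 and 0.31.

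Not every probe with a run followed the pattern. Usf2, which encodes a widely expressed transcription factor, had levels of 1.81, 1.87, 1.89 and 1.84 in the same order of arrays, and a difference of -0.10. Sec61b, a subunit of the channel that carries new proteins into the endoplasmic reticulum, had levels between 5.11 and 5.29 and a difference of 0.03. Oprm1, the mu opioid receptor gene, had a difference of -0.00 by a probe whose run of A and G follows one of A and C. All 3 windows are shown because they hold a run without the shift.
Usf2: gacaaaaaatAGAGAGAGAGgtatttaact
Sec61b: gtcatctGAAGAAGAAGAAGAAGgaaaaaa
Oprm1: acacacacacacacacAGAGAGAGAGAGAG
Capitals in Sec61b mark its AAG run. In all, 177 genes were given by a probe with an A and G run of at least 8 bases or an AAG run of at least 9. They held 41 of the 281 higher values and 1 of the 285 lower ones. Of the 79 higher values credited to sham/PBS they held 28, and of the 33 that stayed past 2-fold with normexp they held 24. Those 24 include St6galnac1 at 1.58, Syn3 at 1.55, Trpm1 at 1.48, Opcml at 1.34 and Dcaf12l2 at 1.30. Of the genes named below, Dlk1 alone has such a probe, but the counts and medians of lists take in all members, and 9 of the 53 lists hold 1 such gene. Without repeat probes the median of the matrix metalloproteinase and elastase list was -0.086 in place of -0.13.

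Some heat shock genes had higher values that went with a high sham/PBS array. Heat shock genes encode chaperones that refold proteins, and their transcription is switched on within minutes by heat shock factors. Hspa1a, an inducible Hsp70, had a level of 3.30 with PBS and 1.61 with PPE in sham lungs, and 0.23 with PBS and 0.59 with PPE in ORX lungs, a difference of responses of 2.05. Its neighbour Hspa1b had levels of 2.78, 1.1, -0.81 and -0.41 in that order, and a difference of 2.08. The genes are near-identical copies, so their probes may share signal. In both, elastase lungs were lower than PBS lungs after sham surgery, by -1.69 and -1.68, and slightly higher after ORX, by 0.37 and 0.40. Hspa1a was credited to a high sham/PBS array, and Hspa1b to no single array, since its gap to the next array was narrower than the range of the other 3.

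The co-chaperones followed the same arrays. Dnajb1, the Hsp40 partner of Hsp70, was at 4.10, 3.16, 2.85 and 3.21, with a difference of 1.30, and Chordc1, an Hsp90 cofactor, was at 2.03, 1.26, 0.90 and 1.11, with a difference of 0.97. Dnaja1, another Hsp40, had 0.80, and Hsph1, which recharges Hsp70, 0.42. Sham/PBS was the highest array in each of these 4 genes. Of 31 heat shock genes, however, 4 were at least 2-fold higher and 0 lower, the median was 0.04 against -0.02 for all genes, and the constitutive members Hspa8 at -0.10, Hspa5 at -0.11 and Hsp90ab1 at 0.14 had little difference. The 4 large values were those of Hspa1a, Hspa1b, Dnajb1 and Hspa1l, a testis Hsp70 at 1.17 from a low ORX/PBS array that was at 0.45 with normexp. Sham/PBS was the highest array for 20 of the 31, and ORX/PPE the lowest for 20.

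The promoters of the Hsp70 pair hold the inverted motif GAANNTTC, the core of a heat shock element, which reads the same on both strands. A search of the 250 bases before each start in the RefSeq promoter table (GRCm38.p6) found it 104 bases before the start of both genes, in windows of 30 bases that are shown for their identity.
Hspa1a: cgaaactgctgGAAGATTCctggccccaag
Hspa1b: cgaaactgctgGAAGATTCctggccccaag
They lie on the minus strand at chr17:34972242-34972271 and chr17:34959324-34959353, and capitals mark the motif. It was in 2199 of the table's 32851 promoters (6.69%), and a match is a description of the letters only.

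Genes of the response to fasting and glucocorticoids gave higher values mostly through a low ORX/PBS array. Pdk4, which turns muscle and lung from glucose to fat oxidation, was at 0.74 with PBS and 0.54 with PPE in sham lungs, and -0.66 with PBS and 0.50 with PPE in ORX lungs, a difference of 1.36. Angptl4, a secreted inhibitor of lipoprotein lipase, was at 4.55, 4.26, 2.91 and 3.83, a difference of 1.21. In both, ORX/PBS alone stood apart from 3 nearby arrays. The cell cycle inhibitor Cdkn1a at 1.04 came from a low ORX/PBS too, but its other probe was at 0.04. Acot1, an acyl-CoA thioesterase of fat oxidation that is not on the list, had 1.19 from a low ORX/PBS. Metallothioneins Mt1 and Mt2, at 0.55 and 0.73, and the transcription factor Cebpd, at 0.71, lay short of 2-fold and were credited to a low ORX/PBS as well. Of 27 genes on this list 4 were at least 2-fold higher and 0 lower, the median was 0.26, and ORX/PBS was the lowest array for 16. The classical glucocorticoid targets Fkbp5 at 0.04 and Dusp1 at 0.06 showed almost no difference.

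The ADAMTS family, metalloproteases that cut aggrecan, versican and other matrix proteins, leaned to the higher side. Of 15 members 4 were at least 2-fold higher and 0 lower, with a median of 0.33. Adamts15 was at 2.52, 2.34, 1.29 and 2.15 in the same order of arrays, and Adamts17 at -1.1, -0.74, -2.33 and -0.73. Their differences were 1.04 and 1.24, and both came from a low ORX/PBS array. Adamts4, an aggrecanase, had 1.23 with both ORX arrays below both sham arrays, and Adamts1 had 1.03 in the crossed arrangement. The other family that cuts matrix, matrix metalloproteinases and elastases, had 0 of 22 members higher and 3 lower. Those 3 were the neutrophil enzymes Mmp8 at -1.68 and Mmp9 at -1.48, and Mmp27 at -1.39, the last at -0.39 with normexp. Mmp9 came from a high sham/PPE array, and Mmp8 and Mmp27 from no single array. Adamts4 was at 0.79 with normexp.

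Clca1 had the highest value of all, and the only one past 2-fold with normexp that came from a high ORX/PPE array. It encodes a secreted protein of goblet cells that goes with mucus production. Its level was 1.69 with PBS and 0.79 with PPE in sham lungs, and 0.91 with PBS and 2.83 with PPE in ORX lungs, so elastase lungs were lower by -0.89 after sham surgery and higher by 1.92 after ORX. Among 20 goblet and mucous cell genes it stood alone: 1 was at least 2-fold higher and 2 lower, Slc26a3 at -1.47 (-0.61 with normexp) and Ltf at -1.1. The list's median was 0.15. Slc26a3 came from no single array and Ltf from a low ORX/PPE array.

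Genes of motile cilia shifted together by less than 2-fold. Of 36 genes 35 lay above 0 and 1 below, the median was 0.48, and 0 passed 2-fold in either direction. Foxj1, the master regulator of motile ciliogenesis, was at 3.07 with PBS and 2.32 with PPE in sham lungs, and 2.50 with PBS and 2.49 with PPE in ORX lungs, a difference of 0.73. The axonemal motor gene Dnah5 had 0.92 and the central apparatus gene Spag6 0.87 (0.55 with normexp), each with sham/PBS highest and sham/PPE lowest. Sham/PBS was the highest array for 34 of the 36 genes and sham/PPE the lowest for 31, so the shift came from the sham pair, while the ORX arrays had list medians of -0.03 and -0.04. Club cell genes, also of the airway lining, had a median of 0.17 over 22 members.

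On the lower side cardiac muscle genes formed the largest set. Of 36 measured cardiac genes 27 were at least 2-fold lower and 0 higher, where 1.47% of all genes were lower, and the median was -1.41. Nppa, which encodes atrial natriuretic peptide, had a level of 2.59 with PBS and 5.59 with PPE in sham lungs, and 2.48 with PBS and 0.99 with PPE in ORX lungs. Its difference of -4.49 came mainly from sham/PPE, and its other probe had -4.61. Nppb, the B-type natriuretic peptide gene of strained heart muscle, was at -4.05, 0.66, -3.97 and -4.94, a difference of -5.69 (-3.88 with normexp) with -4.09 by its other probe. In both genes sham/PPE was the highest array and ORX/PPE the lowest.

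The contractile genes had the same order with smaller steps. Myh6, the atrial and adult heart myosin of the mouse, was at 3.66 with PBS and 4.40 with PPE in sham lungs, and 3.16 with PBS and 2.11 with PPE in ORX lungs, a difference of -1.80. The atrial light chains Myl7 and Myl4 had -1.64 and -1.69, the calcium pump regulator Sln -2.04 and Pln -2.17 (-1.05 with normexp), and cardiac troponin I (Tnni3) -1.46. Sham/PPE was the highest array for 31 of the 36 genes, ORX/PPE the lowest for 33, and both held for 30, against 1866 of all 19323 genes. Elastase lungs were higher in sham mice and lower in ORX mice for 32 of the 36, against 5418 of all 19323 genes. The array credited differed between members. A low ORX/PPE array produced 13 of the 27 large values, among them Mb, the myoglobin gene, at -1.80, Mybphl at -2.10 (-1.37 with normexp), Csrp3 at -1.56 and Myl7. A high sham/PPE array produced 6, among them Nppa, Nppb, Mybpc3 at -1.95 and Cox8b at -1.88, and 8 came from no single array. Myh6, Myl4 and Sln were credited to no single array, and Pln and Tnni3 to a low ORX/PPE array.

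Not all genes of the heart moved. Myh7, the slow ventricular myosin, had 0.23, the calcium release channel Ryr2 -0.00 (-0.76 by its other probe) and cardiac actin (Actc1) -0.39. As medians of each gene's deviation from its mean over the 4 arrays, the cardiac list stood at 0.20 with PBS and 0.73 with PPE in sham lungs, and -0.07 with PBS and -0.98 with PPE in ORX lungs. How much heart or vein wall each pool held was not measured, and its part in these values was not tested. Skeletal muscle genes had 4 of 20 members at least 2-fold lower and 0 higher, with a median of -0.30. They were Myl1, a fast muscle myosin light chain, at -1.77, the perinatal myosin Myh8 at -1.45, the calcium store gene Casq1 at -1.05 (-0.27 with normexp), and Ckm, the muscle creatine kinase, which is on the cardiac list too. Ckm was at -1.81 and at -0.69 with normexp, from a low ORX/PPE array. Casq1 came from a high ORX/PBS array, and Myl1 and Myh8 from no single array.

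**Figure D4:**
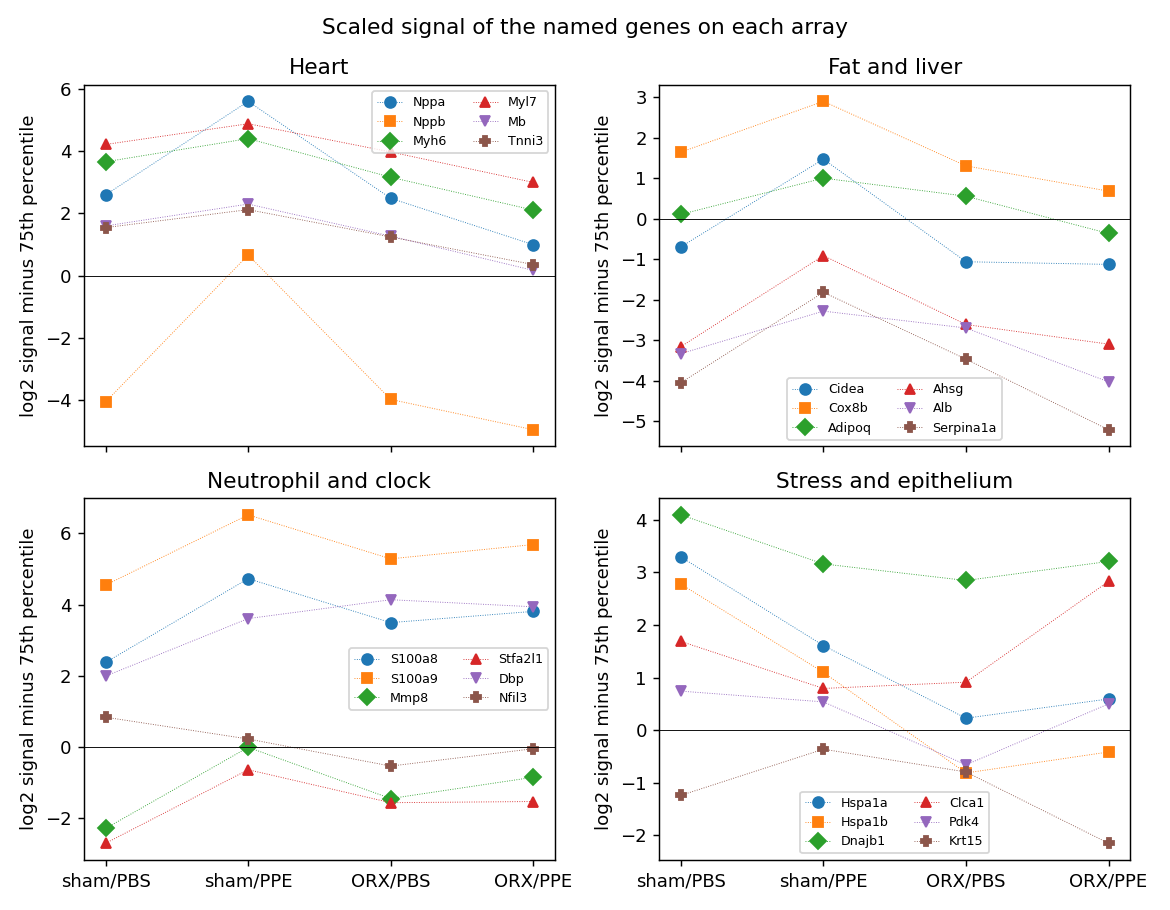
Markers give the level (log2 signal minus the array's 75th percentile) of 6 genes in each of 4 panels on the 4 arrays, 1 array per group; dotted lines only join markers of a gene. Heart, fat and liver genes are highest on sham/PPE, Hspa1a, Hspa1b and Dnajb1 are highest on sham/PBS, and Clca1 is highest on ORX/PPE.

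Fat genes were lower by the same contrast. Of 35 measured members 9 were at least 2-fold lower and 0 higher, with a median of -0.62, and 4 of the 9 came from a high sham/PPE array. Cidea, a lipid droplet protein of brown fat, was at -0.69 with PBS and 1.47 with PPE in sham lungs, and -1.06 with PBS and -1.13 with PPE in ORX lungs, a difference of -2.23 owed to sham/PPE alone. The fatty acid carrier Fabp4 had -1.53 (-1.70 by its other probe) and the lipid droplet coat gene Plin1 -1.44 (-0.84 by its other probes), both from a high sham/PPE. Adipoq, the adiponectin gene, had -1.81 in the crossed arrangement, and Thrsp, a lipogenic gene, had -1.88 from a high ORX/PBS array. Leptin (Lep) at -0.11 and another coat gene, Plin5, at 0.05 showed little difference. Cox8b and Cox7a1, subunits shared by brown fat and heart, are on both lists. Sham/PPE was the highest array for 23 of the 35 genes.

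Liver secretory genes included members of the alpha-1 antitrypsin family, the chief circulating inhibitors of elastase. Serpina1a was at -4.04 with PBS and -1.81 with PPE in sham lungs, and -3.46 with PBS and -5.21 with PPE in ORX lungs, so elastase lungs were higher by 2.23 after sham surgery and lower by -1.74 after ORX, a difference of -3.97. Serpina1c had the same order and a difference of -3.39, Serpina1e had -1.35 (-3.37 by its other probe), and Serpina1b had -0.53. Both sides of Serpina1a contributed, and no single array was credited. Serpina1c was credited to a high sham/PPE array, and Serpina1e to no single array. The Serpina1 genes are close copies whose probes may share signal, and normexp brought Serpina1a to -2.18, Serpina1c to -1.71 and Serpina1e to -0.68. Albumin (Alb) had -2.38 (-1.48 with normexp) from no single array, and Ahsg, which encodes fetuin-A, had -2.73 from a high sham/PPE. Of 21 liver genes 9 were at least 2-fold lower and 0 higher, with a median of -0.39, while transferrin (Trf) had 0.05.

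The protease inhibitors, which the series title names, were otherwise divided. Of 35 serpins 4 were at least 2-fold lower and 1 higher, with a median of -0.19. The single higher serpin was Serpinf2, the gene of alpha-2 antiplasmin, at 1.24 from a low ORX/PBS array and at 0.41 with normexp. Cystatins and stefins, inhibitors of cysteine proteases, had 10 of 18 members lower and 0 higher, with a median of -1.14 that was -0.50 with normexp. The stefins that neutrophils express, Stfa2l1 at -2.03, Cstdc4 at -1.68, Stfa2 at -1.64 and Stfa1 at -1.54 (-0.79 with normexp), made up 4 of the 10, and as near-identical copies they may share signal. Stfa2l1 came from a low sham/PBS array, and Cstdc4 and Stfa2 from no single array. Ahsg and Kng1, at -2.73 and -1.24 (-1.97 and -0.76 with normexp), belong to the liver list too. The broadly expressed cystatin Cst3 was at -0.40 and Cstb at -0.35. Inhibitors of the WAP, Kunitz and Kazal kinds had 1 of 22 lower and 0 higher with a median of -0.10, and TIMPs and other inhibitors had 0 of 15 past 2-fold either way, with a median of -0.05.

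Neutrophil genes had a lower value because elastase went with a larger difference in sham than in ORX lungs, and the sham pair supplied it from both ends. Of 26 measured members 11 were at least 2-fold lower and 0 higher, with a median of -0.56. S100a8, a subunit of calprotectin, was at 2.38 with PBS and 4.73 with PPE in sham lungs, and 3.50 with PBS and 3.81 with PPE in ORX lungs. It was 2.35 higher with elastase in sham and 0.32 higher in ORX lungs, and ORX/PBS already stood above sham/PBS. Its partner S100a9 had -1.57 with levels of 4.55, 6.52, 5.29 and 5.69, Retnlg -1.34 and the C-type lectin receptor gene Clec4d -1.05. For 18 of the 26 genes sham/PPE was the highest array and for 15 sham/PBS was the lowest. The list medians of deviation were -0.55 with PBS and 0.66 with PPE in sham lungs, and -0.17 with PBS and 0.08 with PPE in ORX lungs.

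Within the neutrophil list the members divided. The granule genes Mpo at 0.04, Elane at -0.18 and Camp at -0.22 had little difference. Other granule genes, given above, were lower: Mmp8 at -1.68, Mmp9 at -1.48 and Ltf at -1.1. The chemokine receptor Cxcr1 had little difference too, at -0.07, and was 1.61 and 1.54 higher with elastase in sham and ORX lungs. Chil3, shared with macrophages, was 1.03 higher in both. Macrophage genes differed less: alveolar and alternatively activated macrophages had 2 of 30 members lower and 0 higher, with a median of -0.16, and 24 of the 30 were lowest on sham/PBS.

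Among antigen presentation and lymphocyte genes, differences were mostly under 2-fold. MHC class II genes had a median of -0.35, with 0 of 10 past 2-fold, and sham/PBS was credited as low for 8 of the 10. H2-Aa, a class II alpha chain, was at 2.4 with PBS and 2.96 with PPE in sham lungs, and 3.07 with PBS and 3.05 with PPE in ORX lungs, a difference of -0.59. The 3 other arrays lay within a narrow range in this gene. The B cell gene Ms4a1, at 0.51, 1.5, 2.05 and 1.99 and with a difference of -1.05, the myeloid adaptor Tyrobp at -1.0 and the eosinophil-associated ribonuclease Ear1 at -1.0 had the same source. Of the B cell list 1 of 20 members was lower and 0 higher, and 16 of the 20 were lowest on sham/PBS. Of the 21 T cell genes 13 lay below 0, against 10221 of all 19323 genes. Their median was -0.19, and a low sham/PBS array was credited in 7. The immunoglobulin gene Ighg3 went past 2-fold, at -3.06 (-2.37 with normexp) in the crossed arrangement. Its level was -3.08 on sham/PBS and -0.89 on sham/PPE. It alone passed 2-fold among 10 plasma cell and immunoglobulin genes, whose median was -0.18. Mast cell and eosinophil genes had a median of -0.51 (-0.29 with normexp), with 9 of 12 below 0 and 2 at least 2-fold lower. Those were the mast cell proteases Cpa3 at -1.41 and Mcpt4 at -1.40, at -0.34 and -0.81 with normexp. Cpa3 came from a high ORX/PBS array and Mcpt4 from no single array.

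Natural killer and cytotoxic genes had a median of -0.35, with 0 of 21 past 2-fold. ORX/PBS was the highest array for 18 of them and sham/PBS the lowest for 13, and Gzma, a killer cell granule protease, was at 2.86, 3.50, 3.75 and 3.47 with a difference of -0.92. Interferon response genes had a median of -0.36, with 0 of 27 past 2-fold, and ORX/PPE was the lowest array for 20. Ifit3, an interferon-induced antiviral gene, had the lowest value among them, -0.88, from a high ORX/PBS array at 2.08 against 1.21, 1.57 and 1.56 on sham/PBS, sham/PPE and ORX/PPE. Proliferation genes had a median of -0.26 over 39 members, and ORX/PBS was the highest array for 29.

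Some germ cell transcripts and the imprinted RNA H19 had low values from a high sham/PPE array. Prm2, which encodes a protamine that packs sperm DNA, was at -4.69 with PBS and -0.35 with PPE in sham lungs, and -4.97 with PBS and -4.37 with PPE in ORX lungs, a difference of -3.73 (-2.61 with normexp). The transition protein gene Tnp1, at -4.84, -1.31, -4.55 and -4.55, had -3.53 (-1.97 with normexp), and the linker histone gene H1f7 had -2.61 (-0.97 with normexp). The 3 arrays other than sham/PPE lay close together in Tnp1. H19, an imprinted RNA of embryonic and muscle tissue, was at -4.73, -0.66, -4.41 and -4.23, a difference of -3.90 (-2.53 with normexp). Comp, a cartilage matrix gene, had -1.96 (-0.84 with normexp). The 11 cartilage genes measured went mostly the other way, with a median of 0.29, 9 above 0 and 2 below. Comp was the 1 at least 2-fold lower, and Col11a1, at 1.05 (0.28 with normexp), the 1 higher. The 17 imprinted genes measured had a median of 0.01, with 9 above 0, and H19 was the 1 past 2-fold lower and Dlk1, at 1.34 (0.53 with normexp) by a repeat probe, the 1 higher. Of 18 germ cell genes 4 were lower and 1 higher, and the early spermatocyte genes Sycp1 and Sycp3 had -0.77 and -0.28. Major urinary protein genes, which depend on androgen in the liver, had 3 of 5 measured members lower, of 12 on the array. Mup19 was at -1.78, Mup4 at -1.41 and Mup2 at -1.31, and normexp left Mup19 at -1.01, Mup4 at -0.59 and Mup2 at -0.54. Mup4 came from a high sham/PPE array, and Mup19 and Mup2 from no single array. In Mup19 and Mup4 both ORX arrays lay below both sham arrays.

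Single genes with 1 clear source completed the lower side. Dbp, an output gene of the circadian clock, was at 1.99 on sham/PBS and at 3.61, 4.14 and 3.94 on sham/PPE, ORX/PBS and ORX/PPE, a difference of -1.81 from sham/PBS (-1.96 by its other probe). The clock list had 2 of 19 members lower, Dbp and Nr1d1 at -1.09, and 1 higher, Nfil3 at 1.1, with a median of 0.02. Nr1d1 came from a high sham/PPE array and Nfil3 from no single array. Nfil3 and Dbp bind the same DNA site with opposite effect. Krt15, a keratin of basal airway cells, was at -1.24, -0.36, -0.79 and -2.15, a difference of -2.23 from a low ORX/PPE. Krt5 followed at -1.1 (-0.79 with normexp). They were the 2 of 17 basal and squamous epithelium genes at least 2-fold lower, with 0 higher and a list median of -0.14. Egr1, an immediate early transcription factor, had -1.32 from a low ORX/PPE array, with 0 of the 39 other immediate early genes at least 2-fold lower. The 40 genes had a median of 0.18, with 26 above 0 and 14 below. Mesothelial genes had a median of -0.28 over 15 members, and a low ORX/PPE array was credited in 8 of them.

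Lists of elastic fibre and androgen genes held little difference. Elastic fibre genes had a median of -0.02 over 22 members and 0 past 2-fold in either direction, 11 above 0 and 11 below. Eln, the elastin gene, was at 1.17 with PBS and 2.41 with PPE in sham lungs, and 0.39 with PBS and 2.45 with PPE in ORX lungs, a difference of 0.82 (0.49 by its other probe), and both PPE arrays stood above both PBS arrays. Mfap4, an elastin-binding glycoprotein, had -0.77. For the androgen receptor and genes that respond to it, 0 of 25 passed 2-fold, the median was 0.00 and the values ran from -0.37 to 0.36. Mitochondrial respiration genes had 0 of 39 past 2-fold, yet 38 of the 39 lay below 0, with a median of -0.29, and sham/PPE was the highest array for 34. The list of 18 reference genes had a median of -0.07, with 14 below 0 and sham/PBS the lowest array for 13. Elastase lungs were higher in sham mice for 15 of these 18, against 10216 of all 19323 genes.

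**Figure D5:**
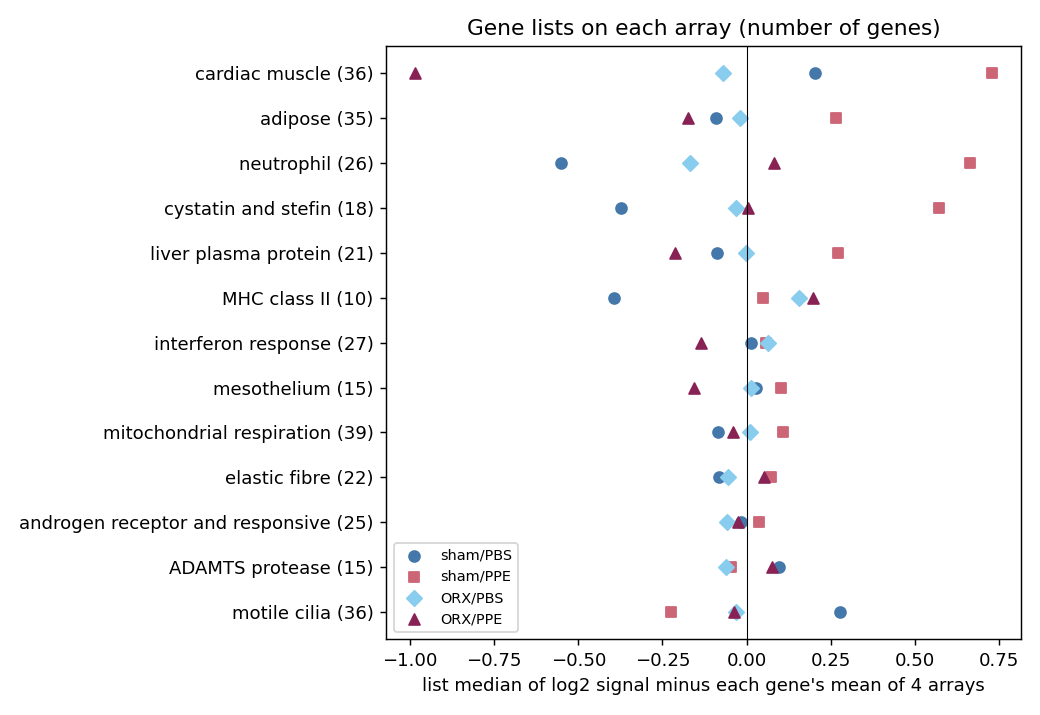
Each marker is the median over a list's genes of the log2 signal minus the gene's mean of the 4 arrays, for 13 lists with the number of genes in brackets, 1 array per group. Cardiac muscle spans from -0.98 on ORX/PPE to 0.73 on sham/PPE, MHC class II is set apart by sham/PBS at -0.39, and motile cilia by sham/PBS at 0.28 and sham/PPE at -0.23.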

How the data were processed

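Lung RNA of 4 groups, 1 pool each, was hybridised to 1-colour Agilent arrays of design 074809. The values used are the processed signal intensity that the authors deposited as scanner text; Agilent Feature Extraction is given as version 10.7.1.1 per the file headers and as 9.5.1.1 per the submitters' processing notes. The deposited value table equals a quantile normalization of the same processed signal and was an alternative.

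From these, log2 of the processed signal minus each array's 75th percentile over non-control spots was computed, outlier spots were left out, and spots of a probe were averaged. Probes well above background on all 4 arrays were kept, and the brightest stood for its gene. Names come from the files, updated through RefSeq tables of GRCm38.p6. Named were the largest values by the smaller of the main and normexp values, the largest credited to each array and the largest of each list. Genes short of 2-fold or beyond this rule that are set beside them were chosen after their values were seen. The members and lists were chosen with earlier results of these data known, and the repeat split after seeing the probes. No test was made, since each group is 1 array, and precision is limited by the count of arrays. R 4.3.3 with limma 3.58.1 and Python 3.11.15 were used, and the steps were tested on simulated data. Alternatives were normexp with an offset of 50, quantile and median scaling, other percentiles, other filters on dim probes, averaging the probes of each gene, other thresholds, another rule for crediting an array, and leaving out repeat probes.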

Additional observations from a re-analysis of the deposited data

Results flagged for a closer look

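Elastase lungs were at least 2-fold higher after sham surgery and at least 2-fold lower after ORX in 7 of the named genes, with 1 array per group, so the difference between the surgeries was not tested. They were Nppa at -4.49, Serpina1a at -3.97, Serpina1c at -3.39, Alb at -2.38, Lrr1 at -2.33, Cst13 at -2.33 and Smpx at -2.30. With normexp Lrr1 was at -0.81 and Cst13 at -0.69.

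Probes outside the members, being above background on 1 array only, numbered 397 for sham/PBS, 402 for sham/PPE, 1143 for ORX/PBS and 268 for ORX/PPE. Smcp, a gene of the sperm mitochondrial capsule, was well above background on sham/PPE only, at least 11.3-fold above the bound set by the other arrays. Pate4, a gene of the male reproductive tract, was so on ORX/PPE only, at least 6.10-fold above that bound.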

How the results depend on the processing

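No paired analysis was possible because each group is 1 array, and no replicate could be left out. Genes at least 2-fold higher and lower numbered 61 and 73 with normexp, 1620 and 1674 with no filter on dim probes, and 65 and 66 in the upper part by brightness. At a 1.5-fold threshold they numbered 1206 and 1060, and at 4-fold 10 and 28. With the other scalings, the mean of probes, outlier spots kept or repeat probes left out, both counts stayed within 1.5 times the main ones. Large values credited to sham/PBS, sham/PPE, ORX/PBS, ORX/PPE and no single array numbered 117, 82, 51, 58 and 258. They numbered 39, 29, 9, 10 and 47 with normexp. Crediting the array whose replacement by the median of the other 3 most reduced the value gave 191, 148, 102, 124 and 1. Of the 566 large values, 566 kept their direction with normexp, quantile scaling, median centring and the mean of probes, and 565 with no filter on dim probes. Without repeat probes 4 named genes changed direction, Lsamp to -0.28, Cdcp1 to -0.082, Phyhipl to -0.67 and Cd300lf to -0.65, because another probe then stood for the gene. Among list medians, normexp moved that of major urinary proteins from -1.31 to -0.54 and that of cystatins from -1.14 to -0.50.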
